A study of Arabidopsis thaliana with 12 samples.

Results

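The comparison described here sets germinated seeds of the sr34a-1 mutant of Arabidopsis thaliana against wild type in the absence of added hormone. Its members were chosen by their labels, as the libraries of both genotypes that had the mock treatment, which gave 6 of the 12 libraries of the series, 3 of each genotype. Wild type (WT) is the accession Col-0, and sr34a-1 carries a mutation in SR34A (AT3G49430), whose kind is not given in the sources used here. For both groups, stratified seeds grew on MS medium for 44 h in continuous white light of 100 µmol/m2 at 21 °C and were then moved for 2 h to fresh MS medium without abscisic acid (ABA). Polyadenylated RNA of whole seedlings was sequenced with standard Illumina libraries. The titles number the libraries as biological replicates, and nothing says whether these came from separate sowings, so that p-values measure the spread between these libraries. The other 6 libraries, which had 0.5 µM ABA, entered the fits to estimate the spread and are otherwise used only where named.

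SR34A belongs to the serine/arginine-rich (SR) proteins, a family of splicing regulators with RNA recognition motifs and a domain rich in alternating arginine and serine. SR proteins bind exons and introns of the transcript as it is made, help the spliceosome to choose 5′ and 3′ splice sites, and decide whether a cassette exon is kept or an intron is removed. Many SR genes are themselves alternatively spliced, often into transcripts that cannot give a whole protein. At the stage sampled here a seedling is using up its seed reserves and building its first green tissue, a transition that ABA delays by keeping genes of the seed programme on.

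Total counts ranged from 62235081 to 83268758 in the 6 libraries. Expression is given as CPM, a gene's counts relative to the library total, scaled with TMM factors, and single libraries are listed in the order of replicates 1, 2 and 3. SR34A (chromosome 3, 18331509 to 18335154, plus strand) had 101, 93.5 and 93.9 CPM in WT and 13.8, 12.4 and 13.4 CPM in sr34a-1. All mutant libraries were far below all WT libraries, in the direction the genotype label gives (log2 fold change -2.86, SE 0.067; edgeR, adjusted p 3.81e-12). Reads over 10 of its 12 introns stood at 18.4% to 25.8% of WT, and at intron 11 they stood at 1.83%, with at most 27.0 reads in a library of sr34a-1. Over intron 12 there were 906, 1249 and 1003 reads in WT, while sr34a-1 replicate 1 had no value and replicates 2 and 3 had 2.03 and 1.03 reads. In whole seedlings, fewer cells of a type and less RNA per cell cannot be told apart. Marker lists of 4 kinds described the tissue, and none of their members was at 0. The summed level of 5 green cotyledon markers was 8616 to 9625 CPM in WT and 5509 to 6552 CPM in sr34a-1, with all 5 lower. That of 5 markers of the endosperm at germination was 105 to 113 CPM in WT and 184 to 214 CPM in sr34a-1, with 3 higher. That of 9 embryo storage markers was 104 to 154 CPM in WT and 244 to 339 CPM in sr34a-1, with 8 higher. That of 7 root hair markers was 411 to 461 CPM in WT and 523 to 546 CPM in sr34a-1, with 6 higher. These markers overlap gene groups described later, and the part of cell or organ makeup in the results was not tested.

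The mutant differed from wild type by many small changes in gene expression. Of 21256 genes tested, 3488 (16.4%) passed an adjusted p of 0.05 in edgeR; sr34a-1 exceeded WT in 1790 of them (8.42%) and fell short of it in 1698 (7.99%). A log2 fold change is sr34a-1 against WT throughout, and 2516 of the called genes changed by less than 0.5 on that scale. The median over all genes tested was 0.02. Calls were spread evenly over the chromosomes, with 16.1% of the genes of chromosome 1 and 16.8% of those of chromosome 5. The count fell to 1938 without WT replicate 2, to 2044 without WT replicate 3 and to 1892 without sr34a-1 replicate 1, and 1565 genes were called in each of the 6 fits that left out a library. Gene groups are described from 43 lists, whose counts are to be read against the shares of all genes just given.

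**Figure D1:**
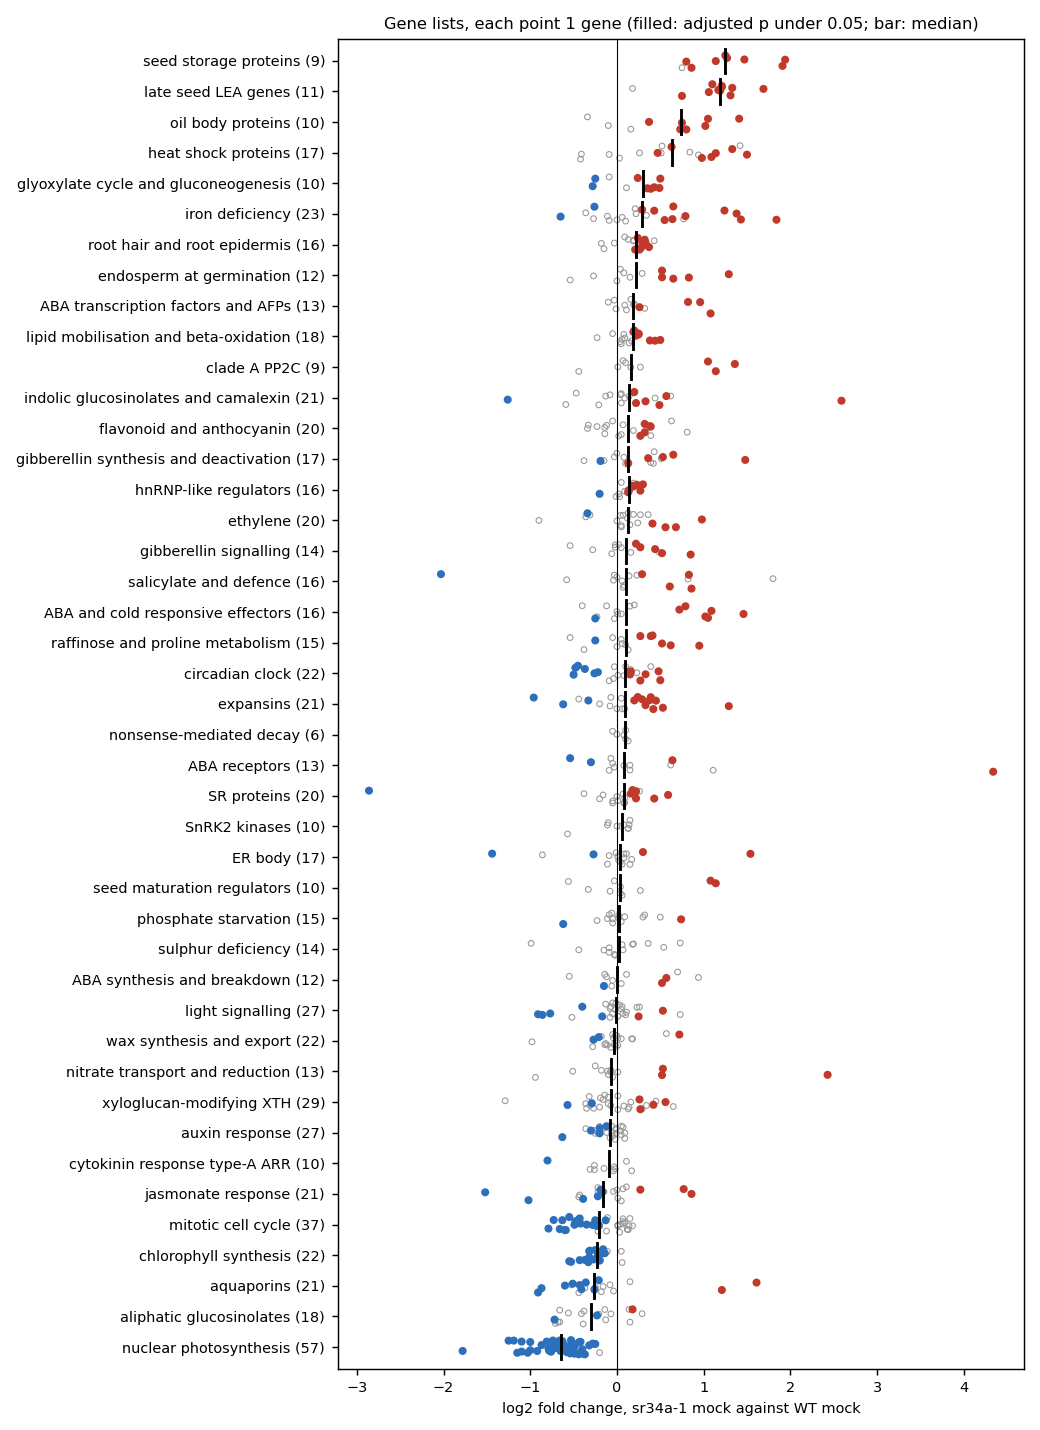
Each point is a gene of 1 of 43 lists, placed by its log2 fold change in sr34a-1 mock against WT mock. Filled points passed an adjusted p of 0.05 (red higher, blue lower), open points did not, black bars are medians, and the number of genes tested stands after each name. Lists are ordered by their median, from 1.25 for seed storage proteins to -0.65 for nuclear photosynthesis genes, and the ABA receptor point at the far right is PYL13, which was near 0 CPM in both genotypes.

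Photosynthesis genes of the nucleus were lower in the mutant almost without exception. Of 57 genes for light-harvesting proteins, photosystem subunits, electron carriers and carbon fixation, 56 fell, with log2 fold changes from -1.78 to -0.25 and a median of -0.65 against 0.02 for all genes. The exception was LHCB4.3, an antenna protein of photosystem II, which had -0.20 (edgeR, adjusted p 0.135). In each of the 57 genes every sr34a-1 library was below every WT library, while 34.9% of all genes tested had no overlap between genotypes in either direction. Their summed level was 37521 to 43280 CPM in WT and 23732 to 28883 CPM in sr34a-1.

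The 11 largest decreases in this list were of chlorophyll-binding antenna genes, while other antenna genes, LHCA5 (-0.25) and LHCB4.3 (-0.20, not called), had the smallest values. LHB1B1 (AT2G34430, chromosome 2, 14524607 to 14525918), a gene of the main antenna of photosystem II, had 92.7, 161 and 162 CPM in WT and 23.3, 48.7 and 49.1 CPM in sr34a-1. Replicate 1 was the lowest library of both genotypes, and the lowest WT library was still above the highest mutant library (log2 fold change -1.78, SE 0.28; edgeR, adjusted p 0.000699). LHCB2.2 (AT2G05070, chromosome 2, 1799234 to 1800472), from the same antenna, had 128, 147 and 145 CPM in WT and 53.3, 67.4 and 62.9 CPM in sr34a-1. Here the mutant libraries were at about the same distance below WT in every replicate (log2 fold change -1.19, SE 0.098; edgeR, adjusted p 6.4e-06). LHCA1, which serves photosystem I, had 692, 857 and 880 CPM in WT and 302, 416 and 415 CPM in sr34a-1, and the groups did not overlap (log2 fold change -1.10, SE 0.13; edgeR, adjusted p 0.000118). The LHCB1 genes are nearly identical copies, so reads may be split among them and the values of single copies are uncertain. Among photosystem subunits, PSAN of photosystem I fell by 0.81 and PSBO1 of the oxygen-evolving complex by 0.57. Among carbon fixation genes, RBCS-1A, a small subunit of Rubisco, fell by 0.44 and RCA, its activase, by 0.53. Differences between these kinds of gene were not tested.

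Genes of chlorophyll synthesis moved the same way by smaller amounts. Of 22 tested, 19 fell and the median was -0.22. HEMA1, a glutamyl-tRNA reductase at the entry of the pathway, had 240, 283 and 274 CPM in WT and 149, 197 and 198 CPM in sr34a-1, with no overlap (log2 fold change -0.55, SE 0.099; edgeR, adjusted p 0.00186). GUN4, an activator of magnesium chelatase, had 165, 174 and 177 CPM in WT and 110, 128 and 120 CPM in sr34a-1, again without overlap (-0.53, SE 0.078; edgeR, adjusted p 0.000481). CRD1, a subunit of the cyclase, fell by 0.43 and HEME1, a uroporphyrinogen decarboxylase, by 0.37 on the log2 scale. GLK1 and GLK2 encode transcription factors that switch on antenna and chlorophyll genes. GLK1 (AT2G20570, chromosome 2, 8855302 to 8857758) averaged 34.6 ± 3.00 CPM over the WT libraries and 19.0 ± 0.977 CPM over those of sr34a-1 (SD, n = 3 each). The spread within each genotype was small beside this gap (log2 fold change -0.86, SE 0.087; edgeR, adjusted p 2.97e-05). GLK2 fell by 0.40. In the wider list of 27 genes of light signalling 5 fell and 2 rose, with a median of -0.01, and PIF4, a growth-promoting factor inactivated by phytochrome, was another that fell (-0.77). The fits without sr34a-1 replicate 2 or 3 called 3 of these as lower, and those without WT replicate 2, WT replicate 3 or sr34a-1 replicate 1 called 0 as higher.

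Genes encoded in the plastid did not show this shift. None of 57 tested was called by edgeR or by DESeq2, 3 had an unadjusted p under 0.05, and the median log2 fold change was -0.08. Libraries were made from polyadenylated RNA, in which plastid transcripts are scarce, and these genes summed to 79.9 to 112 CPM in WT and 88.0 to 102 CPM in sr34a-1. Of 18 mitochondrial genes 0 were called by either tool and 0 had an unadjusted p under 0.05.

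**Figure D2:**
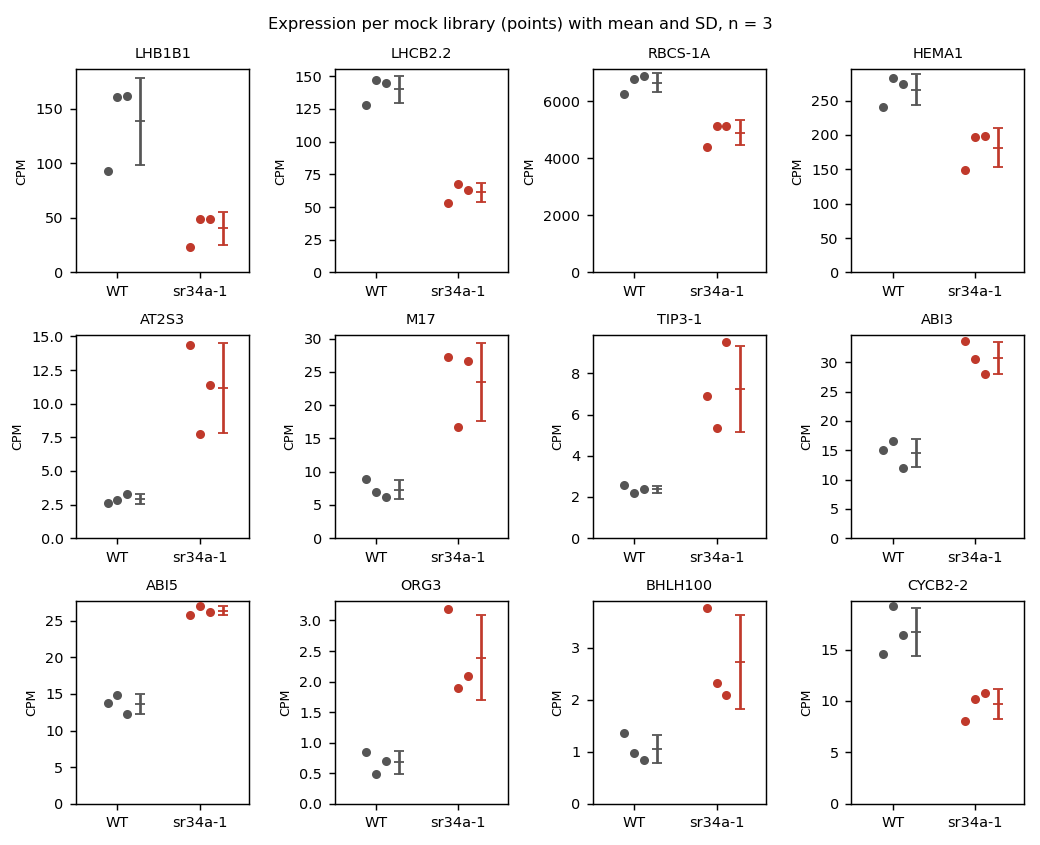
Each panel shows the CPM of a gene in the 3 WT and 3 sr34a-1 mock libraries (points, replicates 1 to 3 from left to right), with mean and SD beside them (n = 3). The upper row holds photosynthesis and chlorophyll genes that are lower in sr34a-1, and the other panels seed, ABA and iron genes that are higher, apart from the cyclin gene CYCB2-2. Replicate 1 is the lowest library of both genotypes for LHB1B1 and HEMA1.

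Genes of the late seed programme were higher in sr34a-1. Of 9 seed storage protein genes 8 rose, with a median of 1.25, and each fit that left out a library also called 8. Of 11 genes for late embryogenesis abundant (LEA) proteins and their companions, which protect the drying embryo, 10 rose with a median of 1.19. Of 10 oil body protein genes 7 rose with a median of 0.74, and 4 did so without WT replicate 3.

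Among the storage proteins, the albumin gene AT2S3 (AT4G27160, chromosome 4, 13611796 to 13612563) had 2.59, 2.85 and 3.28 CPM in WT and 14.4, 7.74 and 11.4 CPM in sr34a-1. The mutant libraries varied more than the WT libraries and all lay above them (log2 fold change 1.94, SE 0.23; edgeR, adjusted p 0.000113). AT2S3 stands in a tandem array of similar genes, among which reads could be divided, and its own value is uncertain. CRA1, a cruciferin, was the most abundant member, with 57.5, 88.9 and 69.5 CPM in WT and 154, 138 and 183 CPM in sr34a-1, and the groups did not overlap (1.14, SE 0.17; edgeR, adjusted p 0.000662). M17 (AT2G41260), a LEA gene, had 8.85, 6.95 and 6.14 CPM in WT and 27.2, 16.7 and 26.6 CPM in sr34a-1. Its lowest mutant library, replicate 2, was above every WT library (1.69, SE 0.19; edgeR, adjusted p 7.73e-05). EM1 and EM6, the classical early methionine-labelled LEA genes, rose by 1.10 and 1.31. OLEO1, the major oleosin that coats oil bodies, had 7.54, 11.1 and 9.23 CPM in WT and 18.0, 17.6 and 21.2 CPM in sr34a-1, without overlap (1.02, SE 0.16; edgeR, adjusted p 0.000765). TIP3-1 and TIP3-2, aquaporins of the protein storage vacuole, rose by 1.61 and 1.21, while 9 of the 21 aquaporin genes fell. Other seed-expressed genes among the largest increases were PDF1.1, a defensin (1.74), BGLU19, a beta-glucosidase (1.54), and SCPL44, a serine carboxypeptidase-like gene (1.53).

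Some regulators that hold the seed programme on were higher as well. ABI3 (AT3G24650, chromosome 3, 8997370 to 9001185), a B3-domain activator of storage and LEA genes, averaged 14.5 ± 2.37 CPM over the WT libraries and 30.7 ± 2.73 CPM over those of sr34a-1 (SD, n = 3 each). Every mutant library was well above every WT library (log2 fold change 1.08, SE 0.11; edgeR, adjusted p 2.75e-05). ABI5 (AT2G36270, chromosome 2, 15204659 to 15207636), a bZIP factor that acts with ABI3 in arresting growth after germination, had 13.7, 14.9 and 12.2 CPM in WT and 25.8, 27.0 and 26.2 CPM in sr34a-1. The mutant libraries were closer to each other than to any WT library (0.96, SE 0.095; edgeR, adjusted p 2.75e-05). ABI4, an AP2 factor of the same response, rose by 0.82 and AFP4, an ABI5-binding protein, by 0.26. These 4 were the members called among 13 ABA transcription factors and binding proteins, whose median was 0.19, and ABF3 had 0.11 (edgeR, adjusted p 0.311). Of 10 seed maturation regulators 2 rose, ABI3 and MFT (1.14), a regulator of seed dormancy and germination.

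In the core of ABA signalling, calls were mixed in direction for receptors, upward for clade A PP2C phosphatases and absent for SnRK2 kinases. They covered 30.8% of 13 receptor genes, 33.3% of 9 PP2C genes and 0.00% of 10 SnRK2 genes, against 16.4% of all genes. Of 13 ABA receptor genes 2 rose and 2 fell. Without WT replicate 2, 0 were called as higher and 1 as lower, without WT replicate 3 or sr34a-1 replicate 1, 1 and 1, and without sr34a-1 replicate 3, 1 was lower. PYL1 had -0.30 and was called in every fit without a library, PYL2 had 0.64 and PYL7 -0.54, and PYL13 was near 0 throughout (WT at most 0.0132 CPM, sr34a-1 at most 0.191 CPM). Of 9 clade A PP2C genes, for phosphatases that shut the pathway off and are themselves induced by ABA, 3 rose: AIP1 (1.36), HAI3 (1.14) and AHG1 (1.05). Of 10 SnRK2 kinase genes 0 were called by edgeR, 5 had an unadjusted p under 0.05, and DESeq2 called 1, as lower. In ABA synthesis and breakdown, CYP707A2 and CYP707A3, which encode ABA 8′-hydroxylases, rose by 0.52 and 0.57, and ZEP, which makes a precursor of ABA, fell by 0.15, among 12 genes tested. The call of ZEP was lost in 3 of the 6 fits without a library, and 2 genes were lower without WT replicate 1. Of 16 ABA and cold responsive effector genes 6 rose, among them RAB18, a dehydrin (1.09), and LTI65 (1.05), and P5CSA, an enzyme of proline synthesis, fell by 0.25. Of 15 genes of raffinose and proline metabolism 6 rose, such as GOLS2, a galactinol synthase (0.95). All of these plants were without added ABA, and hormone levels were not measured.

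Genes for the use of stored oil were higher by small amounts. Of 10 genes of the glyoxylate cycle and gluconeogenesis 6 rose and 2 fell, with a median of 0.29. ICL, the isocitrate lyase of the cycle, was among the most abundant transcripts, with 10142, 8371 and 8883 CPM in WT and 13498, 11948 and 11500 CPM in sr34a-1. The groups did not overlap, although the highest WT library, replicate 1, was near the lowest mutant library (log2 fold change 0.43, SE 0.076; edgeR, adjusted p 0.00156). CSY3, a peroxisomal citrate synthase, rose by 0.50, and PCKA, the phosphoenolpyruvate carboxykinase that leads carbon to sugar, by 0.35. PMDH2 and PCK2 fell by 0.25 and 0.28, but 0 were called as lower without sr34a-1 replicate 1 and 1 without WT replicate 2, WT replicate 3 or sr34a-1 replicate 3. Of 18 genes of lipid mobilisation and beta-oxidation 9 rose with a median of 0.18, and 5 did so without WT replicate 2. Among them were MFP2 (0.44) and PED1 (0.38), 2 enzymes of the peroxisomal beta-oxidation spiral, and SDP1L, an oil body lipase (0.50).

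Iron-deficiency genes differed in both directions. Of 23 tested, 10 rose and 2 fell, with a median of 0.29. The basic helix-loop-helix genes of subgroup Ib, which partner FIT in switching on iron uptake, rose most. ORG3 (AT3G56980, chromosome 3, 21086390 to 21087710) had 0.847, 0.480 and 0.702 CPM in WT and 3.19, 1.90 and 2.09 CPM in sr34a-1. All mutant libraries lay above WT, at low levels in both (1.84, SE 0.31; edgeR, adjusted p 0.00127). ORG2 rose by 1.43, BHLH100 by 1.38 and BHLH101 by 1.24, the last losing its call in 4 of the 6 fits without a library. BHLH47, known as POPEYE, rose by 0.79, FRO2, the ferric reductase of the root surface, by 0.64, and ATOPT3, an iron transporter of the phloem, by 0.55. The 2 that fell were FER4 and FER3, ferritins that store iron in plastids, while FER1 had -0.36 and FER2 0.34 without passing the test. FIT, IRT2 and NAS1 to NAS4 did not pass it either. FER4 had 89.8, 108 and 101 CPM in WT and 50.0, 66.4 and 74.2 CPM in sr34a-1, with no overlap (-0.65, SE 0.12; edgeR, adjusted p 0.00175). FSD1, an iron superoxide dismutase named here after its values were seen, also fell (-1.06, SE 0.26; edgeR, adjusted p 0.0129).

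Mitotic genes were lower. Of 37 cell cycle genes 19 fell, with a median of -0.21, and the fits without a library called 14 to 19 as lower. Members with large changes included genes of the transition from G2 to mitosis and of cytokinesis. CYCB2-2 (AT4G35620), a B-type cyclin, had 14.6, 19.2 and 16.4 CPM in WT and 8.08, 10.2 and 10.8 CPM in sr34a-1. The groups did not overlap (-0.79, SE 0.12; edgeR, adjusted p 0.000482). CYCB2-4 fell by 0.73, CYCB1-2 by 0.59, the mitotic kinase gene CDKB2-2 by 0.49 and KN, the cytokinesis syntaxin KNOLLE, by 0.66. The 6 MCM genes of the replication helicase that were listed, MCM2 to MCM7, did not pass the test.

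Cell wall and water channel genes were mixed. Of 21 aquaporin genes, the 9 that fell were PIP and TIP genes such as PIP2-6 (-0.91) and PIP1-3 (-0.60), and 5 fell in the fits without WT replicate 2, WT replicate 3 or sr34a-1 replicate 1. Of 21 expansin genes, for proteins that loosen the wall, 10 rose and 3 fell, and the same 3 fits called 3 as higher. EXPA2 (AT5G05290, chromosome 5, 1568694 to 1569915), which is expressed in the endosperm of germinating seeds, had 19.8, 22.2 and 19.7 CPM in WT and 49.5, 51.1 and 50.0 CPM in sr34a-1. Its libraries were tightly grouped by genotype (1.29, SE 0.077; edgeR, adjusted p 2.21e-07). EXPA5 (-0.96) and EXPB3 (-0.62) fell. Among 12 endosperm genes 5 rose, and besides EXPA2 these included EPR1, an extensin-like gene of the germinating endosperm (0.83), and MAN7, an endo-mannanase (0.65). The part of endosperm left on the seedlings in these values was not tested. Of 16 root hair and root epidermis genes 8 rose by 0.21 to 0.37, and 5 did so without WT replicate 2, WT replicate 3 or sr34a-1 replicate 1. Of 29 xyloglucan-modifying XTH genes 4 rose and 2 fell, and the fits without a library called 2 to 4 as higher and 0 to 6 as lower. The count that fell was 6 without WT replicate 1, 0 without sr34a-1 replicate 1 and 1 without WT replicate 2, WT replicate 3 or sr34a-1 replicate 2, and the count that rose was 2 without WT replicate 2 or sr34a-1 replicate 3.

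Heat shock protein genes stood above WT in part. Of 17 tested 7 rose, with a median of 0.63, but 4 did so without WT replicate 2 or without sr34a-1 replicate 1, and 11 without WT replicate 1. MED37C (AT3G12580), an HSP70 chaperone, had 160, 105 and 107 CPM in WT and 342, 317 and 274 CPM in sr34a-1. WT replicate 1 stood above the other WT libraries and below the mutant (1.33, SE 0.16; edgeR, adjusted p 0.000116). HSP17.4A, a small chaperone, had 1.68, 0.820 and 0.940 CPM in WT and 3.13, 2.87 and 3.57 CPM in sr34a-1, with the same order of libraries in WT (1.50, SE 0.24; edgeR, adjusted p 0.000953). HSFA2, the heat shock factor that sustains the response, had 0.94 (edgeR, adjusted p 0.0841), and its splicing is described with the exons.

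Some repressors of gibberellin signalling were higher. Of 14 signalling genes 5 rose, including 3 of the DELLA repressors of germination and growth: RGL2 (0.85), RGL3 (0.52) and GAI (0.27). RGL2, the DELLA protein that acts most in seeds, averaged 21.6 ± 1.55 CPM over the WT libraries and 39.0 ± 1.81 CPM over those of sr34a-1 (SD, n = 3 each), with a gap larger than the spread in either genotype (SE 0.087; edgeR, adjusted p 3.54e-05). Of 17 genes for gibberellin synthesis and deactivation 5 rose and 1 fell. GA20OX2, a synthesis enzyme, rose by 0.36, but the fits without a library called 1 to 5 as higher: 1 without WT replicate 2, 2 without WT replicate 3, sr34a-1 replicate 2 or sr34a-1 replicate 3, and 3 without sr34a-1 replicate 1. Of 22 clock genes 7 rose and 6 fell by at most 0.50. Among those that fell were CCA1 (-0.26), LHY (-0.22) and RVE8 (-0.37), MYB-like factors of the clock, and among those that rose BOA (0.48), ADO3 (0.50) and APRR1 (0.15). APRR9, APRR7, GI and LUX did not pass the test. The count that rose was 4 without WT replicate 2, 2 without WT replicate 3 and 3 without sr34a-1 replicate 1. Seedlings grew in continuous light, and the time of sampling is not given in the sources used here.

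Beyond the lists, a few genes of other function changed strongly. Among called genes with no overlap and a mean level from log2 CPM 1 upwards, the 2 largest increases were of genes without a symbol. They were AT5G35935, a pseudogene (2.95, SE 0.089; edgeR, adjusted p 6.69e-11), and AT1G50280, of the NPH3 family (2.93, SE 0.093; edgeR, adjusted p 8.81e-11). AT1G76740, an uncharacterized gene, had the largest decrease after SR34A (-2.25, SE 0.13; edgeR, adjusted p 1.44e-07). GH3.9, an auxin-amido synthetase, had 2.44, 4.19 and 3.76 CPM in WT and 0.395, 1.02 and 1.17 CPM in sr34a-1. WT was above the mutant in all comparisons of libraries (log2 fold change -2.01, SE 0.31; edgeR, adjusted p 0.000696). MES17, a methyl esterase, fell by 1.36, PME68 by 1.23 and AIR1B by 1.20. BCA1, a chloroplast carbonic anhydrase, had -1.15 and lost its call in 4 of the 6 fits without a library (edgeR, adjusted p 0.0477). FLC, the floral repressor, was named after its values were seen. It had 10.3, 9.22 and 9.75 CPM in WT and 5.30, 4.99 and 3.75 CPM in sr34a-1, and the groups were far apart for their spread (-1.06, SE 0.10; edgeR, adjusted p 2.75e-05). Within 250 kb of SR34A, 18 of 113 genes were called (15.9%), 8 higher and 10 lower, a share near that of all genes. Of these, MPT2 (2.51) and AT3G49055 (-1.57) exceeded 1 in size, and MPT2 reached at most 0.255 CPM in any library.

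Expression of other splicing regulators changed little. Of 20 SR and SR-like genes 6 rose and SR34A fell, with a median of 0.08. SR30 (AT1G09140), a close relative of SR34A, had 53.8, 49.6 and 50.5 CPM in WT and 79.1, 75.6 and 76.5 CPM in sr34a-1. Libraries of a genotype were within a few CPM of each other (log2 fold change 0.59, SE 0.042; edgeR, adjusted p 1.99e-06). RSZ22A, a zinc-knuckle SR protein, had 64.7, 59.9 and 57.2 CPM in WT and 87.3, 80.3 and 77.2 CPM in sr34a-1, without overlap (0.43, SE 0.055; edgeR, adjusted p 0.000196). SR34, another close relative, had 120 CPM in each WT library and 143, 138 and 137 CPM in sr34a-1, so that a small change was well outside the spread (0.22, SE 0.038; edgeR, adjusted p 0.00147). RS2Z32 (0.22), SCL30 (0.18) and RS2Z33 (0.16) made up the 6, and lost their calls in 3, 5 and 4 of the 6 fits without a library. The count was therefore 3 without WT replicate 2, without WT replicate 3 or without sr34a-1 replicate 1. SR34B, the remaining member of the SR34 group, had -0.16 (edgeR, adjusted p 0.127). Of 16 hnRNP-like regulators, which often oppose SR proteins, 7 rose by at most 0.30 and RZ1C fell by 0.20, a call lost in 4 of the 6 fits without a library, and 2 rose without WT replicate 2 or sr34a-1 replicate 1 and 4 without WT replicate 3. Of 6 genes of nonsense-mediated decay, the pathway that removes transcripts with early stop codons, 0 were called by edgeR or DESeq2 and 2 had an unadjusted p under 0.05.

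**Figure D3:**
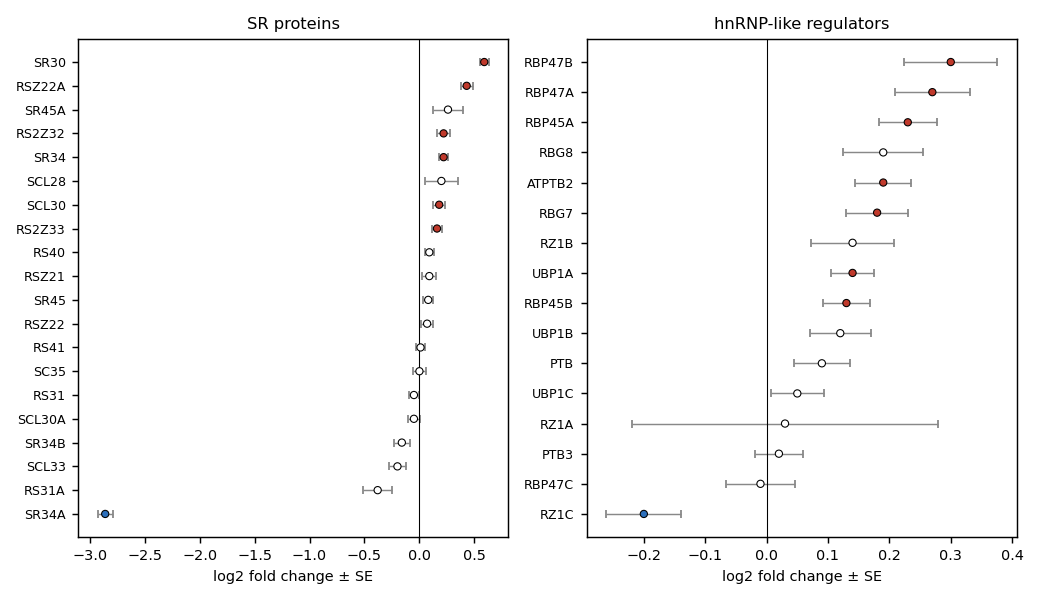
Points are log2 fold changes of sr34a-1 mock against WT mock with their standard errors, for 20 SR and SR-like genes (left) and 16 hnRNP-like regulators (right). Filled points passed an adjusted p of 0.05 in edgeR (red higher, blue lower). The horizontal scales differ: SR34A lies at -2.86, and all other genes lie between -0.5 and 0.6.

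Splicing was compared by the percent spliced in (PSI), the percent of reads that include an exon or intron or use a given splice site. Of 27995 events tested, 148 (0.529%) in 113 genes passed an adjusted p of 0.05 in limma; the PSI of sr34a-1 exceeded that of WT in 67 (0.239%) and was smaller in 81 (0.289%). Without the filter on mean PSI the balance turned, with 311 higher and 213 lower, and in the 6 mock libraries alone 146 were higher and 141 lower. Without the variance trend of the limma fit 7 events were called, 2 higher and 5 lower, so most calls rest on that setting. The PSI of the 2 genotypes did not overlap in any of the 148, and it did not overlap in 3954 of all 27995 events tested (14.1%). Leaving out any 1 of the 6 mock libraries gave 82 to 110 calls, and 50 events were called in each of these 6 fits. The lowest counts were 82 without WT replicate 2, 89 without WT replicate 3, 90 without sr34a-1 replicate 2, 93 without sr34a-1 replicate 3 and 95 without WT replicate 1.

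The event types differed in how often they were called and in which direction. Of 1115 cassette exons tested 40 (3.59%) were called, 11 (0.987%) with more inclusion and 29 (2.60%) with less, while 602 of the 1115 had a higher mean in sr34a-1. Without the filter on mean PSI 245 exons were called. Their directions are not given here, so the excess of decreases is stated for the main setting only. Of 16716 introns 52 (0.311%) were called, 31 (0.185%) with more retention and 21 (0.126%) with less. Of 7047 alternative 3′ splice sites (acceptors) 42 (0.596%) were called, 18 higher (0.255%) and 24 lower (0.341%). Of 3117 alternative 5′ splice sites (donors) 14 (0.449%) were called, 7 (0.225%) in each direction. The median size of a called change was 10.4 PSI units for exons, 11.4 for introns, 11.3 for acceptors and 6.30 for donors. In the fits without a library, 16 of the 40 exons, 16 of the 52 introns, 12 of the 42 acceptors and 6 of the 14 donors kept their calls throughout.

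**Figure D4:**
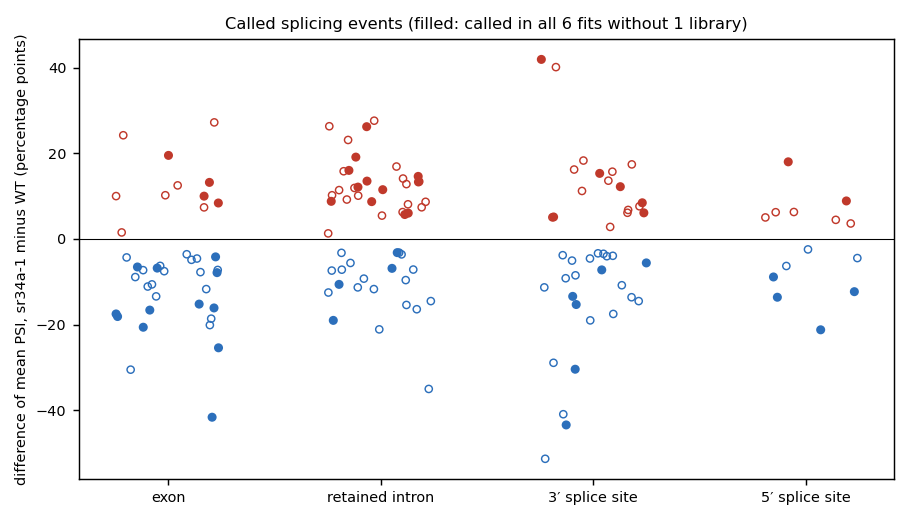
Each point is 1 of the 148 called events, placed by the difference of mean PSI between sr34a-1 mock and WT mock in percentage points. Red points are higher and blue points lower in sr34a-1, and filled points were called in all 6 fits that left out a library. Exons show 29 decreases against 11 increases, introns 21 against 31.

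The exons with less inclusion were mostly included in WT. Their median PSI in WT was 93.7, against 65.6 for the called exons with more inclusion and 80.8 for the 1112 tested exons with a sequence. Their median length was 66 bases and that of all tested exons 68. The length was a multiple of 3 in 14 of 29 (48.3%), in 4 of the 11 exons with more inclusion (36.4%) and in 35.0% of all tested exons. The hexamer GAAGAA, a letter pattern found in known SR-binding enhancers and searched on the transcribed strand only, was in 1 of the 29 exons, 2 of the 11 and 8.63% of all tested exons. Retained introns that were called had a median length of 193 bases when higher and 247 when lower, against 116 for all tested introns. Their median PSI in WT also differed, at 19.7 when higher and 18.8 when lower, against 4.45, so length and level are not separated here. These are descriptions of small sets, without a test.

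Alternative forms of SR30 and SR34, close relatives of SR34A, were less used in the mutant. In SR30, an acceptor at 2943564 on chromosome 1, which lies 338 bases upstream of the main acceptor, had a PSI of 37.8, 36.5 and 40.4 in WT, against 6.92, 8.02 and 8.63 in sr34a-1. Use of this site was far lower in every mutant library, with 288 to 549 reads behind each value (limma, adjusted p 2.83e-10). Retention of the intron that spans it (2943227 to 2944168) fell from 29.1 ± 2.72 to 10.1 ± 2.11 (SD, n = 3 each; limma, adjusted p 9.52e-07), and these 2 events share reads. Both 3′ splice sites are shown on the minus strand of TAIR10.1 as 30 intron bases in lower case followed by the first 10 exon bases in capitals, since use of the upstream one changed most in PSI among the called events of SR genes; they lie at chr1:2943555-2943594 and chr1:2943217-2943256.
SR30 upstream acceptor: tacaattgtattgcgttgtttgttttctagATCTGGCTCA
SR30 main acceptor: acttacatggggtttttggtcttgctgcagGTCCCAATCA

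In SR34, an exon of 80 bases (chromosome 1, 628777 to 628856) inside a long intron had a PSI of 5.54, 6.36 and 5.70 in WT, against 1.46, 2.07 and 1.52 in sr34a-1. It was rarely included in either genotype, and every mutant library was below WT with 1912 to 2793 reads per library (limma, adjusted p 4.51e-07). Retention of the surrounding intron of 818 bases fell from 9.79 ± 1.10 to 2.93 ± 0.650 (SD, n = 3 each; limma, adjusted p 6.94e-07), and it shares reads with the exon. The exon is shown in capitals with 30 intron bases on each side (chr1:628747-628886, plus strand).
SR34 exon: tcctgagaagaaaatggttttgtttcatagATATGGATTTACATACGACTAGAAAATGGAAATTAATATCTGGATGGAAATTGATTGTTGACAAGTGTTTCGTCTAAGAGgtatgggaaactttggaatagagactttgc

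SR34B moved the other way in an intron of 168 bases outside its coding span, whose retention was 1.25, 2.76 and 3.84 in WT, against 15.8, 15.2 and 17.3 in sr34a-1. All mutant libraries were several times above WT, on 121 to 162 reads (limma, adjusted p 0.00478). In the residual SR34A transcript, retention of intron 9 was 2.37 in WT and 11.1 in sr34a-1 (limma, adjusted p 0.000357). Retention of intron 11 was 0.490 in WT and 45.0 in sr34a-1 and that of intron 12 was 0.340 and 16.3, without a test and, in the mutant, on the few reads given for these introns. Other splicing regulators with a called event lost it in 4 or more fits without a library: an acceptor of SR45, an SR-like protein, fell from 81.6 to 73.1, an acceptor of AFC1, a kinase that phosphorylates SR proteins, from 85.9 to 66.8, and retention in RZ1C rose from 10.2 to 15.6.

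Exons whose inclusion fell in every fit without a library are shown next, chosen for the size of the decrease or the number of reads behind it. Exons are in capitals, with 30 intron bases on each side in lower case, read 5′ to 3′ on the gene's strand from TAIR10.1. Their positions with flanks are chr5:1639424-1639581 (minus) for AT5G05550, chr5:15988249-15988422 (plus) for AT5G39940, chr2:10251260-10251370 (minus) for RPOT3 and chr1:19454157-19454303 (minus) for CURT1C. All 4 lie between the first and last coding base of their genes and are flanked by AG and GT.
AT5G05550 exon: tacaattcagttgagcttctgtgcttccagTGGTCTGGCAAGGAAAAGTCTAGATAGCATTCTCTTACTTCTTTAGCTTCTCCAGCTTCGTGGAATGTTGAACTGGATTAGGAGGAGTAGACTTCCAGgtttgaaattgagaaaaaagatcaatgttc
AT5G39940 exon: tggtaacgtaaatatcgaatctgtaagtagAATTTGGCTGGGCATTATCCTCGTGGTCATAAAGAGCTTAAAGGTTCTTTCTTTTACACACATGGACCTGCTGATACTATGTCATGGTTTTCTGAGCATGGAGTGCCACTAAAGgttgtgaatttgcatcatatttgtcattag
RPOT3 exon: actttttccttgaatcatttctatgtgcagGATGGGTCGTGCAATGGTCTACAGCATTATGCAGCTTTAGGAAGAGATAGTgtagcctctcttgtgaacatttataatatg
CURT1C exon: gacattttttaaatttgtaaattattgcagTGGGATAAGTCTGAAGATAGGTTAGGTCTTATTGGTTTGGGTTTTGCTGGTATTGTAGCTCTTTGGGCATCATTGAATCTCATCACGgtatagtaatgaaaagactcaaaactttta

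The 98-base exon of AT5G05550, annotated as a sequence-specific DNA-binding factor, had the widest gap among exons, with 43.3, 53.6 and 55.2 in WT, against 11.4, 5.47 and 10.6 in sr34a-1. Inclusion was in the middle range in WT and low in the mutant (limma, adjusted p 2.31e-09). The 114-base exon of AT5G39940, an oxidoreductase gene, had 90.9, 95.8 and 89.2 in WT, against 71.8, 57.9 and 70.0 in sr34a-1, so that skipping became common in all 3 mutant libraries (limma, adjusted p 9.52e-07). The 51-base exon of RPOT3, the phage-type RNA polymerase of plastids, had 97.1, 96.2 and 94.4 in WT, against 80.0, 77.0 and 76.4 in sr34a-1. It was almost constitutive in WT, and 51 bases keep the reading frame (limma, adjusted p 1.13e-07). The 87-base exon of CURT1C, a protein that curves thylakoid membranes, had 94.6, 95.1 and 94.4 in WT, against 88.4, 88.8 and 86.6 in sr34a-1. This small change rests on 4117 to 7113 reads per library (limma, adjusted p 7.24e-09), and its gene was also lower in expression (-0.44).

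Other exons with less inclusion in every fit without a library included that of CCR4-3, a deadenylase-like gene (92.1 to 71.5). Those of AT4G02120, a CTP synthase (59 bases, 93.9 to 76.4), and AT5G25520 (33.6 to 17.5) were also among them. Further ones were in CPSF73-I, the endonuclease of 3′-end cleavage (18.9 to 2.24, outside the coding span), and PPH1, the phosphatase of the photosystem II antenna (98.2 to 90.3). CCR4-3 was higher in expression (0.92; edgeR, adjusted p 9.88e-07), while its 66-base exon kept the frame. An exon of GPA1, the alpha subunit of the heterotrimeric G protein, fell from 96.0 ± 0.249 to 89.8 ± 3.16 (SD, n = 3 each) and lost its call in 1 fit without a library.

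Fewer exons gained inclusion. The exon of AT1G50140, an AAA-type ATPase gene, is shown because its gain was the largest among those called in every fit without a library. That of HSFA2 is shown because its gain was larger but less stable. The stretches lie at chr1:18575718-18575843 (minus) and chr2:11136216-11136306 (plus), with exons in capitals.
AT1G50140 exon: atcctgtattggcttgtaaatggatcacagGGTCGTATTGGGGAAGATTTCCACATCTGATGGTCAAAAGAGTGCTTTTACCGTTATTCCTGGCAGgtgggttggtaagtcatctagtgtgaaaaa
HSFA2 exon: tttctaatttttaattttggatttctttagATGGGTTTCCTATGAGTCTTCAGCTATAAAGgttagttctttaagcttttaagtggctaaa

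AT1G50140 had 45.4, 44.0 and 42.3 in WT, against 66.5, 61.0 and 62.9 in sr34a-1, with no overlap and 402 to 651 reads (limma, adjusted p 0.000676). The 31-base exon of HSFA2 had 52.0, 37.0 and 37.2 in WT, against 70.4, 75.6 and 61.9 in sr34a-1. WT replicate 1 stood apart from the other WT libraries, as it did for heat shock genes, and the call was lost in 3 of the 6 fits without a library (limma, adjusted p 0.0054). AT5G51620 (65.6 to 78.8) also gained inclusion in every fit without a library. So did AT5G17530, a phosphoglucosamine mutase gene (74.1 to 84.1), and AT5G12240, an octanoyltransferase gene (87.5 to 95.9).

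**Figure D5:**
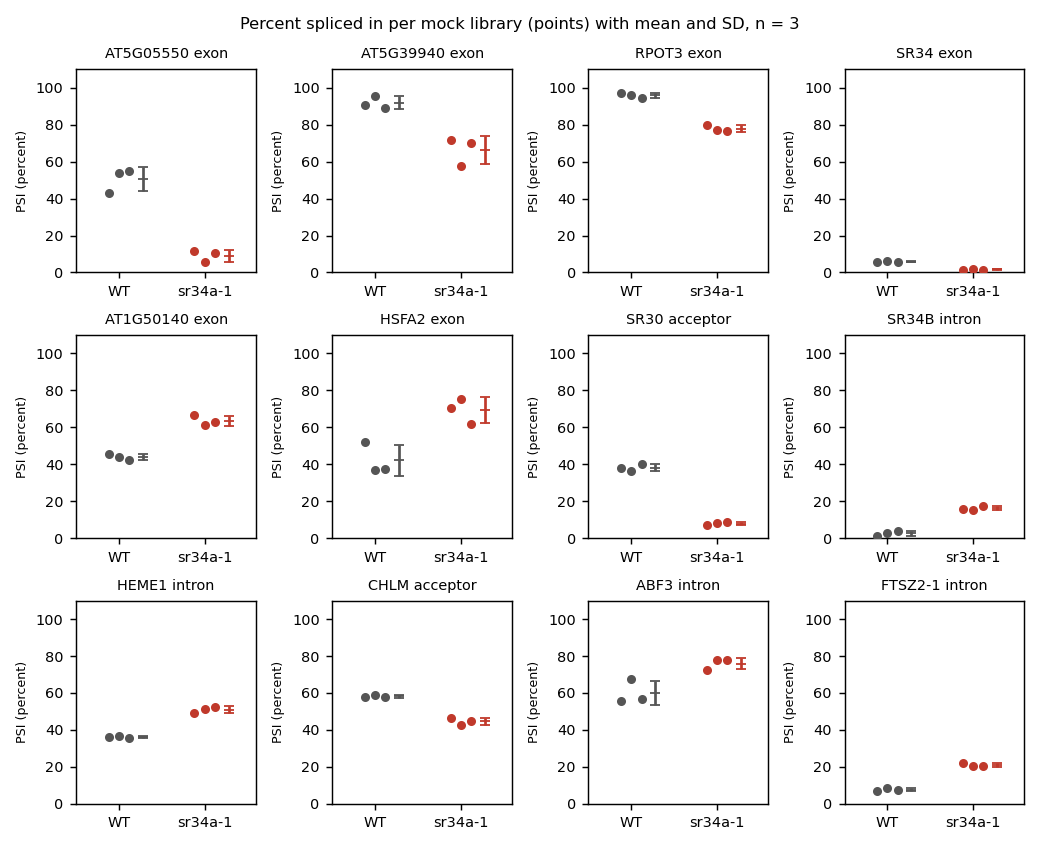
Each panel shows the PSI of an event, from 0 to 100, in the 3 WT and 3 sr34a-1 mock libraries (points, replicates 1 to 3 from left to right), with mean and SD beside them (n = 3). Exons of AT5G05550, AT5G39940, RPOT3 and SR34 and acceptors of SR30 and CHLM are lower in sr34a-1, and the other 6 events are higher. Spread within a genotype is widest for AT5G39940 in sr34a-1 (SD 7.59) and HSFA2 in WT (SD 8.56).

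Among the called introns 31 rose and 21 fell, while 8007 of all 16716 tested had a higher mean in sr34a-1. The largest change was a decrease, in AT4G09012 (PSI difference -35.0, on 24 to 96 reads). Retention also fell in AT3G57630 (40.8 to 19.8) and AT4G34310 (23.9 to 7.47). These calls were lost in 4, 5 and 6 fits without a library, in that order. AT3G56580 fell from 96.6 to 86.0 and kept its call throughout, as did the introns of SR30 and SR34 given above. The introns described next rose. HEME1, lower in expression, retained an 82-base intron outside its coding span at 36.4, 36.7 and 35.8 in WT, against 48.9, 51.5 and 52.4 in sr34a-1. The values within a genotype differed by a few units on 2802 to 4141 reads (limma, adjusted p 1.13e-07). FTSZ2-1, a protein of the plastid division ring, retained an intron of 452 bases at 6.71, 8.79 and 7.58 in WT, against 22.2, 20.3 and 20.6 in sr34a-1, again without overlap (limma, adjusted p 2.98e-06). ABF3, an ABA-responsive bZIP factor, retained a 114-base intron at 55.6, 67.5 and 56.8 in WT, against 72.4, 77.8 and 77.6 in sr34a-1, and WT replicate 2 came close to the mutant (limma, adjusted p 0.00282). PDF1B, a peptide deformylase of plastids, went from 3.69 to 9.73, BHLH121, a regulator of the iron-deficiency response, from 92.8 to 98.5, and AT2G25730 from 47.8 to 74.1. TYRDC, a tyrosine decarboxylase, went from 10.2 to 33.3 while its expression fell by 0.82, and its retention call was lost in 3 fits without a library.

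Short introns inside the coding span of AT3G63510 and CRK29 are shown as cases in which a whole intron stays in the transcript. The intron is in capitals with 20 exon bases on each side, at chr3:23452422-23452534 (plus) and chr4:11403000-11403113 (minus).
AT3G63510 intron: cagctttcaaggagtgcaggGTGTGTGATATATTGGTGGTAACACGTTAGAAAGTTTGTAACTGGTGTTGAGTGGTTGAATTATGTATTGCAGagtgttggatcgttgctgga
CRK29 intron: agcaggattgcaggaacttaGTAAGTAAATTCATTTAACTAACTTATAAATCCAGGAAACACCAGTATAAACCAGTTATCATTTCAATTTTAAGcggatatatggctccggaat

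The intron of AT3G63510, an oxidoreductase gene, is 73 bases long, and its retention was 10.2, 11.1 and 11.3 in WT, against 23.8, 22.6 and 22.5 in sr34a-1. Both genotypes were tightly grouped (limma, adjusted p 0.00071), and the gene was lower in expression (-0.42). The 74-base intron of CRK29, a receptor-like kinase, had 15.6, 11.4 and 12.6 in WT, against 34.4, 32.1 and 30.2 in sr34a-1, with no overlap (limma, adjusted p 0.00105).

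Shifts between acceptors came in pairs, where a rise at a site is the fall at its partner. TTL, a transthyretin-like protein of purine breakdown, chose between a pair of nearby acceptors, and the upstream one had 44.7, 35.9 and 41.3 in WT, against 27.8, 24.5 and 23.7 in sr34a-1. The groups did not overlap (limma, adjusted p 0.00179), and the shift keeps the reading frame. The sites are at chr5:23554970-23555009 and chr5:23554931-23554970 on the minus strand, with exon bases in capitals.
TTL upstream acceptor: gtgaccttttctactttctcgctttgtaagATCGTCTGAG
TTL downstream acceptor: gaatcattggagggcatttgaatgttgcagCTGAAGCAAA

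CHLM, the methyltransferase that follows magnesium chelatase in chlorophyll synthesis, moved from an acceptor at 12878339 on chromosome 4 to one at 12878382, both outside its coding span. Use of the former was 57.7, 59.0 and 57.7 in WT, against 46.7, 42.8 and 44.6 in sr34a-1, on 1957 to 3344 reads. The mutant libraries were all lower (limma, adjusted p 1.5e-05), and CHLM was lower in expression (-0.25). RBL6 shifted by more, from 69.5 to 26.1 at a site outside its coding span, but on 30 to 57 reads. An acceptor of TULP2 rose from 87.4 to 95.9, of AT4G26650, an RNA-binding protein, from 92.0 to 98.1, and of RH11, an RNA helicase, from 93.8 to 98.9. HYH, the partner of HY5 in light signalling, shifted from 51.5 to 40.6 at an acceptor at 6024108 on chromosome 3 and lost this call in 4 fits without a library.

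Donor changes were few. PAA1, the copper-transporting ATPase of the chloroplast envelope, had 33.3, 40.9 and 30.3 at a donor at 16122242 on chromosome 4 in WT and 15.5, 10.2 and 15.2 in sr34a-1. The groups were well apart (limma, adjusted p 0.00148). A donor of EMB3114 fell from 66.9 to 53.4 and a donor of SPP3B, a sucrose-phosphate phosphatase, from 91.4 to 79.2, while 1 of AT1G52100, a lectin gene, rose from 45.5 to 63.5 on 2138 to 4196 reads (limma, adjusted p 1.49e-09).

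Changes of splicing and of expression met in some genes. Of the 113 genes with a called event 37 (32.7%) were also called for expression, 17 higher and 20 lower, against 16.9% of the 9961 genes with a tested event, which was not tested as a difference. Their median absolute log2 fold change was 0.12. More than 1 event was called in 31 of the 113 genes, often in events that share reads. Of the 148 events 71 were also called between the genotypes after ABA in the same direction, and 143 had the same direction there. The matching shares over all tested events are not given here. Both comparisons took their spread from the same fit of 12 libraries, so these counts are a description only. For genes, the interaction of genotype and ABA called 0 of 21256 in edgeR, with 1374 at an unadjusted p under 0.05.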

How the data were processed

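Counts per gene were deposited by the authors as whole numbers, one column per library, and sum to the depths given above. Corrected RPKM values (cRPKM) were also deposited by the authors and entered alternatives only, on log2(value + pseudocount) with pseudocounts of 1 and 0.1. The percent spliced in of each event was deposited by the authors as a percent, with the inclusion and exclusion reads behind it, and coordinates are TAIR10, per the submitters' processing notes; aligner, counter and strand setting are not given in the sources used here.

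Genes were tested with edgeR 4.0.16 (quasi-likelihood test, TMM, default filter) in R 4.3.3, with a mean for each of 4 groups over 12 libraries. Events with at least 10 reads in every library and a mean PSI from 2 to 98 were tested with limma 3.58.1 on log2((inclusion + 0.5)/(exclusion + 0.5)) with a variance trend. P-values were Benjamini-Hochberg adjusted over 21256 genes or 27995 events, with a threshold of 0.05. Members and lists were chosen with earlier results of these data known. Of 896 list names 24 matched no gene and 14 were dropped as homonyms. Genes were named from SR34A and the 10 largest increases and decreases with a symbol, no overlap and a mean level from log2 CPM 1 upwards. They were also named from called list members and called genes within 250 kb of SR34A. Not all members of these sets are named, and some list members left out had larger changes than those named. Genes without a symbol are named where they were among the 3 largest in a direction by the same limits. Events were named from the 4 largest in each type and direction with at least 20 reads and from called events in list genes, and some of these were left out. Uncalled genes, FLC, FSD1 and other events were named after their values were seen. Sequences came from RefSeq TAIR10.1. On simulated data, edgeR recovered 65 of 100 genes changed by 0.5 and 83 of 100 changed by 1 (log2). It made 9 false calls among 20973 genes. These counts were drawn independently with the spread of the fit, and all groups had the WT mock mean apart from the changed genes. The numbers therefore do not give recovery or false calls for the real genes. In simulated events limma recovered 106 of 200 changed by 15 PSI units, with 4 false calls among 26540. The changed events were drawn only from those of middle mean PSI with more reads than the filter required. Their spread between libraries was assumed, so these numbers do not give recovery or false calls for all tested events. DESeq2 1.42.0, other filters and scalings, a replicate block and leaving out each library were alternatives.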

Additional observations from a re-analysis of the deposited data

Results flagged for a closer look

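ZEP (AT5G67030), a zeaxanthin epoxidase of ABA synthesis, moved in opposite directions with and without the hormone. It had 110, 113 and 110 CPM in WT and 96.0, 100 and 103 CPM in sr34a-1 without ABA, a log2 fold change of -0.15 (edgeR, adjusted p 0.0201) that was lost in 3 of the 6 fits without a library. With ABA its log2 fold change was 0.11 (edgeR, adjusted p 0.0689), and in both conditions the libraries of the genotypes did not overlap. The difference between the conditions did not pass the interaction test (edgeR, adjusted p 0.3).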

How the results depend on the processing

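Same-numbered libraries correlated at 0.263, 0.092 and 0.105 in their deviations from the group means, against -0.193 to 0.116 between other numbers. Not all 3 exceeded 0.1 and the labels name no shared batch, so the numbers were not taken as pairs, although replicate 1 hints at a link; with a replicate block edgeR called 5381 genes (2868 higher, 2513 lower) and limma 161 events. With a log2 fold change of at least 1 there were 282 genes, 203 higher and 79 lower. In the 6 mock libraries alone 44.4% of the called genes were higher, against 51.3% with all 12. Leaving out a library gave 1892 to 4145 genes, 895 to 2166 higher and 935 to 1979 lower, 3 to 7 SR genes higher, 4 to 6 oil body genes, and 5 to 10 lipid mobilisation genes.

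Without the filter on mean PSI 524 events were called, 311 higher and 213 lower, with 245 exons, 142 acceptors and 75 donors. Without the variance trend there were 7 events, with 3 exons, 4 acceptors, 0 introns and 0 donors, in limma, while 2153 events had an unadjusted p under 0.05 with the trend. In the 6 mock libraries alone there were 287, 146 higher and 141 lower, with 84 exons, 106 introns, 67 acceptors and 30 donors. A PSI difference of at least 10 left 79, with 22 exons, 30 introns, 23 acceptors and 4 donors. Leaving out a library gave 82 to 110 events, with 24 to 32 exons, 25 to 36 introns, 22 to 34 acceptors and 8 to 13 donors. The cause of these differences was not tested.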

Other observations

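Defence and secondary metabolism differed in single genes. Of 21 genes of indolic glucosinolates and camalexin 6 rose and 1 fell, with a median log2 fold change of 0.14, and 2 rose without WT replicate 2. Of these genes 3 fell without WT replicate 1 or sr34a-1 replicate 3, and 0 without WT replicate 2. CYP71A13 rose by 2.59 and CYP81F2 by 0.57, while CYP71A12 fell by 1.26. CYP71A13 exceeded AT2S3 (1.94), the largest increase among genes with a symbol, no overlap and a mean level from log2 CPM 1 upwards. CYP71A12 likewise fell by more than LHCB1.2 (-1.25), which ranked among such decreases. These CYP71A genes are outside those rankings, so each had a lower mean level or overlapping genotypes, and their values are uncertain. Of 18 genes of aliphatic glucosinolates 1 rose and 2 fell with a median of -0.31, the rise being called only in the fits with all libraries, without WT replicate 3 and without sr34a-1 replicate 1, and MYB28, an activator of this pathway, fell by 0.72. Of 17 genes of the ER body, a store of beta-glucosidases, 2 rose and 2 fell (median 0.04), with BGLU18 at -1.44, and 1 rose and 1 fell without WT replicate 2 or sr34a-1 replicate 1, 1 fell without sr34a-1 replicate 2. Of 21 jasmonate genes 3 rose and 6 fell (median -0.16). VSP2, a vegetative storage protein, fell by 1.02 and LOX3 rose by 0.86. Without WT replicate 2, 1 rose and 3 fell, without WT replicate 3, 2 fell, without sr34a-1 replicate 1, 1 rose and 2 fell, and without sr34a-1 replicate 2, 3 fell. Of 16 salicylate and defence genes 4 rose and 1 fell (median 0.11), and 2 rose without WT replicate 2 or sr34a-1 replicate 3, while the decrease lost its call in 4 of the 6 fits without a library. WRKY33, a defence transcription factor, had 15.2, 15.7 and 16.4 CPM in WT and 22.8, 24.3 and 25.1 CPM in sr34a-1 (0.61, SE 0.073; edgeR, adjusted p 0.000113). Of 20 ethylene genes 4 rose and 1 fell (median 0.12), with ERF2 at 0.98 and ACO4 at -0.34, which lost its call in 5 of the 6 fits without a library. Of 20 flavonoid and anthocyanin genes 5 rose (median 0.13) and 3 did so without WT replicate 3, with F3H at 0.38 and FLS1 at 0.39.

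Other lists held few calls. Of 27 auxin response genes 5 fell (median -0.08), IAA3 by 0.30, and the fits without a library called 1 to 3. Of 10 type-A ARR genes of the cytokinin response 1 fell, ARR16 (-0.81), which lost its call without WT replicate 3, sr34a-1 replicate 1 or sr34a-1 replicate 2. Of 13 nitrate genes 3 rose (median -0.07), among them NRT2.7 (0.53) and NRT3.1 (0.52). Of 15 phosphate starvation genes 1 rose, PAP17 (0.74), or 2 without WT replicate 1, and 1 fell, RNS1 (-0.62). Of 14 sulphur deficiency genes 0 were called by edgeR or DESeq2 and 1 had an unadjusted p under 0.05. Of 22 wax genes 1 rose and 2 fell (median -0.04), and the fits without WT replicate 3 or sr34a-1 replicate 1 called 0 in either direction, that without WT replicate 2 called 0 as higher, and those without sr34a-1 replicate 2 or 3 called 1 as lower.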
